A study of Mus musculus with 2 samples.

Results

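DNA replication and E2F target genes were compared between mouse embryonic fibroblasts (MEFs) that carry Malat1 and MEFs that lack it. They were taken as a named list of 50 genes for origin licensing, the replicative polymerases, nucleotide synthesis and the G1/S transition, together with the E2F1 to E2F3 transcription factors, and each was matched by symbol to probe sets with a single gene symbol on the Affymetrix Mouse430_2 array. Of the 50 genes 49 were found, among 18194 genes with such a probe set, and Chaf1a, a subunit of a chromatin assembly factor, was not analysed here. MEFs are fibroblasts cultured from minced embryos, and Malat1 is an abundant long noncoding RNA held in nuclear speckles. The control was a culture of wildtype MEFs and the other group a culture of Malat1 knock-out MEFs, both untreated, on a C57BL/6 background, from embryos at day 13.5, and grown for 2 weeks. The making of the knock-out allele and the number of embryos behind each culture were not given in the sources used here. Each genotype is represented by 1 array, so no difference below has a replicate check and none carries a p-value.

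Cells copy their DNA once per cycle by loading the MCM helicase onto origins in G1 and firing those origins in S phase. The supply of these proteins is set largely by the E2F transcription factors, which the retinoblastoma family of pocket proteins holds inactive until cyclin D and cyclin E kinases phosphorylate it. Primary fibroblasts leave the cycle with passage in culture, and transcripts of this programme are a common readout of how many cells are cycling.

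Some facts of the arrays bear on every value. Signals are log2 values, and each gene is represented by its brightest probe set (averaged over the arrays). It counts as measured at or above the array's median (the floor, 5.39 for the wildtype and 5.44 for the knock-out). The 2 brightest of the 7 Malat1 probe sets read 9.80 and 9.49 on the wildtype array and 4.53 and 3.38 on the knock-out array, below its floor. The arrays also differed in sex-linked transcripts, with Xist at 4.50 and 11.49 and the Y-linked gene Eif2s3y at 8.57 and 2.81, so that sex and genotype cannot be told apart. Fibroblast markers were above the floor on both arrays for 15 of 15 genes, with mean signals of 11.56 and 11.34. On the knock-out array 11 of them were lower and 4 higher, with a median difference of -0.27. Macrophage and leukocyte markers were measured for 12 of 13 genes, at means of 7.62 and 7.32, with 10 lower and 2 higher (median -0.38). Epithelial markers were measured for 8 of 13 (7.19 and 7.46), with 2 lower and 6 higher (median 0.37). Endothelial markers were measured for 5 of 10, all 5 higher on the knock-out array with a median difference of 0.41. Pecam1, Cdh5 and Cdh1 were below the floor on both arrays. The part of these differences in the results below was not tested.

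E2F proteins bind a short GC-rich site, and the promoters of the members carried its letters far more often than promoters did in general. The letters searched on both strands were TTTCCCGC, TTTGGCGC, TTTCGCGC and TTTGCCGC, in the RefSeq window (GRCm38.p6) from 250 bases before to 50 bases after a listed start. Of the 41 members with a window 17 (41.5%) held a match, against 704 of 27025 genes (2.60%), measured or not. Among measured genes with a window 439 held a match and 8733 did not. The members were chosen as replication genes and E2F targets, so their share describes the list and tests nothing. The stretches below have a match before the start, and their genes act at the origin, in the G1/S kinase or in copying chromatin. E2f3, Gins3, Pola1 and Rfc3 also have a match before the start and are not shown. Their differences, given below, were -0.12, -0.13, -0.17 and -0.01. The stretches shown run 5′ to 3′ on the gene's strand, with the matched letters in capitals. In Mcm5 and Mcm6 a pair of matches overlaps and shares its central bases, and Mcm6 has a further match nearer the start. Mcm7 has 2 listed starts and the matches lie at the one shown, a further match falling after it, and Uhrf1 also has 2 starts with a match at the one shown.
Orc1 (chr4:108579377-108579453, plus strand): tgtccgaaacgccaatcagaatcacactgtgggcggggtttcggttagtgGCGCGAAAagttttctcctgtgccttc
Cdc6 (chr11:98907963-98908070, plus strand): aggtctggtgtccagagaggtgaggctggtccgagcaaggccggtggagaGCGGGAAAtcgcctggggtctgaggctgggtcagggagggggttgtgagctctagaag
Mcm5 (chr8:75109306-75109417, plus strand): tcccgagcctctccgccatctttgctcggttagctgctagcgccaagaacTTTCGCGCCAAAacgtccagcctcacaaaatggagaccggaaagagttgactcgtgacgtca
Mcm6 (chr1:128359706-128359865, minus strand): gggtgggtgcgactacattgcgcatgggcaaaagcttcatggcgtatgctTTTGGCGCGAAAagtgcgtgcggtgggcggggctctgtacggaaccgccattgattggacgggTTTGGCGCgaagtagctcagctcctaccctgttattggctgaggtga
Mcm7 (chr5:138171991-138172098, minus strand): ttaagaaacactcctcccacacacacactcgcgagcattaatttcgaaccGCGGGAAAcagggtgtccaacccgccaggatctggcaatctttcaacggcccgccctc
Cdk2 (chr10:128705134-128705241, minus strand): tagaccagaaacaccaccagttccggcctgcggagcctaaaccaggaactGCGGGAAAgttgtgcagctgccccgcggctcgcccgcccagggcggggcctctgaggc
Uhrf1 (chr17:56304078-56304185, plus strand): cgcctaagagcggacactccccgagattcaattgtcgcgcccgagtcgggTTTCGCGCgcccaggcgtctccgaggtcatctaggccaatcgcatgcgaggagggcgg

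The E2F factors E2f2 and E2f3 each held a match in their windows, and E2f1 is shown for contrast. No match to these letters was found in its window, which says only that these letters are not in it. Its last 150 bases before the start hold 3 GC boxes (GGGCGG or its reverse complement), in capitals here. GC boxes were found for 32 of the 41 members with a window (78.0%) and for 38.2% of all genes.
E2f1 (chr2:154569427-154569576, minus strand): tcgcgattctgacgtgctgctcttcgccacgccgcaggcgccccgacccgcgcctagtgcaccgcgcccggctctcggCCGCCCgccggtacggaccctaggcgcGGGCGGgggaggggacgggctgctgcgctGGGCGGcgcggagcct

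The replication programme as a whole was present on both arrays at nearly the same level. Of the 49 genes found 47 were measured on both arrays, their wildtype signals spanning 6.65 to 13.37 and their knock-out signals 6.31 to 13.30. The median difference, knock-out minus wildtype, was -0.09 on the log2 scale, beside -0.05 over all 11295 measured genes. None of the 47 members reached 1.5-fold in either direction, where 2.44% of all measured genes did (1.61% lower and 0.832% higher). At 2-fold the shares of all measured genes were 0.336% in either direction, 0.266% lower and 0.0708% higher, and no member reached it. At a smaller size of 0.32 on the log2 scale, 2 members, Cdc6 and Orc1, were lower and none higher, beside 15.9% of all measured genes in either direction (9.91% lower and 5.96% higher). In a bulk culture, fewer cycling cells and less RNA per cycling cell cannot be told apart.

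The sign of the difference leaned to the knock-out being lower, and that lean depended on how the arrays were scaled. As deposited 37 of 47 members were lower on the knock-out array and 10 higher (78.7% lower), beside 59.8% of all measured genes lower and 39.2% higher. With the median difference of measured probe sets set to 0 the split was 28 lower and 19 higher. Quantile normalization gave 25 lower and 22 higher, and loess centring gave 26 and 21. The share of all measured genes that were lower moved with them, to 47.6%, 44.8% and 47.4%. Against the median of all measured genes in place of 0, 29 of 47 members lay below it. That count was 39 with no floor, and 34 and 22 with floors at the 40th and 75th percentile. The number of members measured and the all-gene median (0.01, -0.03 and -0.06) also changed with the floor. The 3 other scalings move most genes upward together, so a small negative difference can turn positive through that common shift. The differences of the members had an SD of 0.14, beside 0.24 over all measured genes, and the pooled SD between probe sets of the same gene was 0.20.

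**Figure D1:**
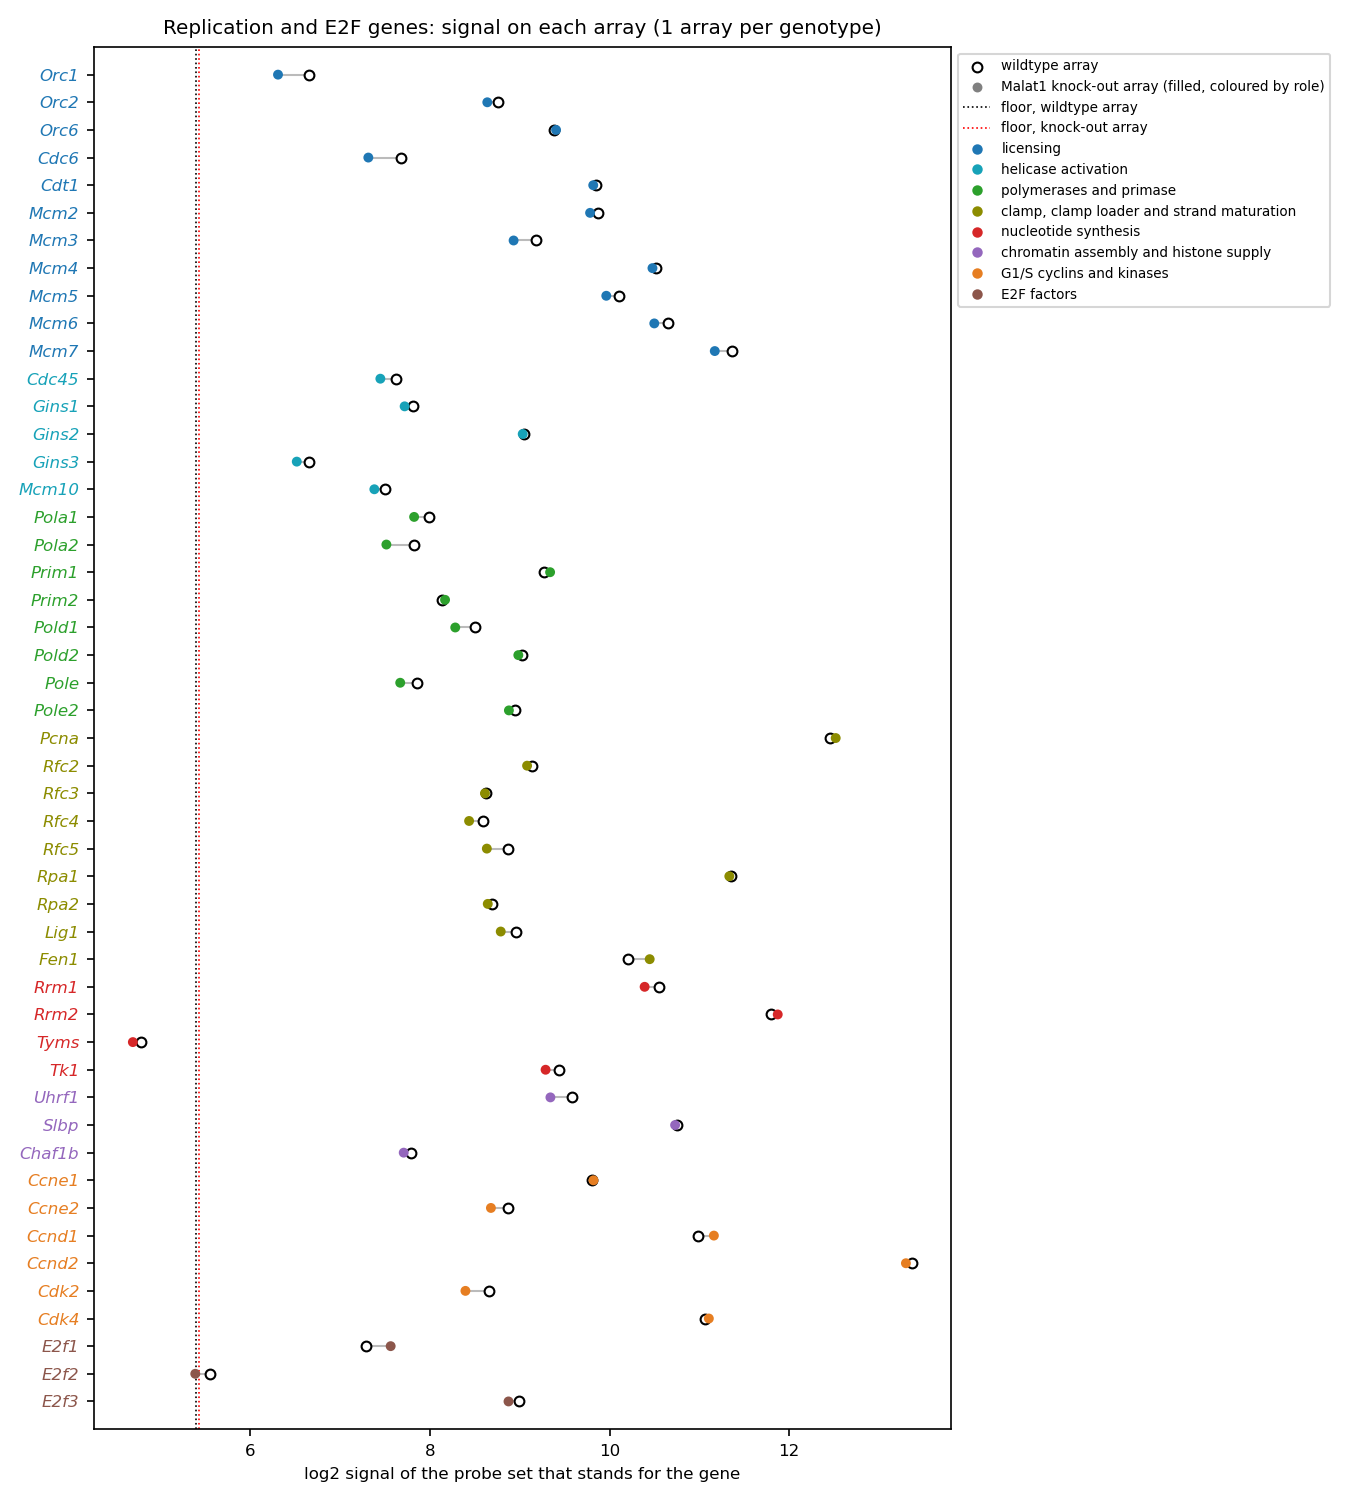
Log2 signal (horizontal axis) of the probe set that stands for each of the 49 members found, open circles for the wildtype array and filled circles for the Malat1 knock-out array, coloured by role, with dotted lines at the floors of 5.39 and 5.44. The circles of a gene nearly coincide; distances between genes are not levels, since each probe set has its own affinity, and Tyms lies below both floors.

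Licensing genes, which load the helicase onto origins, had a median of -0.15, with 10 of 11 lower on the knock-out array. Their medians were -0.09, -0.08 and -0.09 under median centring, quantile and loess scaling. As deposited 59.8% of all measured genes were lower, the background for the gene count of this and each later group. Cdc6, the ATPase that recruits the helicase to the origin, read 7.67 on the wildtype array and 7.32 on the knock-out array. Its difference of -0.36 (1.28-fold lower) was the largest of all members, and it kept its sign under every alternative that could be run. Only 7.55% of all measured genes had a lower difference. Orc1, the ATPase subunit of the origin recognition complex, read 6.66 and 6.31 (-0.35). A dimmer Orc1 probe set ran opposite, at 5.90 and 6.30 (0.40), so the probe sets of Orc1 disagree and their mean is 0.03. Orc2 read 8.76 and 8.64 and Orc6 9.38 and 9.41, and the other Orc2 probe sets differed by 0.02 and 0.12. The origin recognition complex as sampled here therefore had 2 lower and 4 higher probe sets. Cdt1, the partner of Cdc6 in helicase loading, read 9.85 and 9.82, with a second probe set at 8.40 and 8.19.

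The 6 subunits of the MCM2-7 helicase pointed the same way at every measured probe set. All 16 of their measured probe sets were lower on the knock-out array, where 61.7% of all measured probe sets were. Mcm3 read 9.18 and 8.93, Mcm7 11.37 and 11.17, Mcm6 10.65 and 10.50, and Mcm5 10.11 and 9.96. Their differences were -0.25, -0.19, -0.15 and -0.15. Mcm2 read 9.87 and 9.78 and Mcm4 10.52 and 10.48, at -0.09 and -0.04. The size was small throughout, with the largest at a second Mcm5 probe set, which read 8.16 and 7.70 (-0.46), and the smallest at Mcm4. With the median difference set to 0, 15 of the 16 probe sets stayed below 0, after quantile normalization 14 and after loess centring 15. The below-floor probe sets of Mcm3, Mcm5 and Mcm6 were higher, by 0.40, 0.10 and 0.08. Several probe sets of a gene read the same RNA, so they do not stand in for replicates, and those ending in _x_at or _s_at, used here for Mcm2, Mcm3, Mcm5 and Mcm7, can pick up related transcripts.

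Helicase activation genes turn the loaded helicase into the moving fork, and all 5 were slightly lower, with a median of -0.12. Cdc45, the helicase cofactor, read 7.62 and 7.45. Its dimmer probe set was higher on the knock-out array, at 5.93 and 6.41 (0.48), so the direction for Cdc45 depends on the probe set. Mcm10, which helps the helicase to fire, read 7.50 and 7.38. The GINS subunits Gins1, Gins2 and Gins3 differed by -0.09, -0.02 and -0.13, and both Gins3 probe sets gave -0.13. After quantile normalization the median of this group was 0.01, so no direction holds across scalings.

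Polymerase and primase genes had a median of -0.12, with 6 of 8 lower. With the median difference set to 0 the median was -0.06, after quantile normalization -0.0088 and after loess centring -0.02, and Prim1, Prim2 and Pold2 were above 0 under all 3, with Pole2 above 0 under quantile and loess. Polymerase alpha and primase, which lay down the first primer of every fragment, split by subunit. Pola2, the regulatory subunit of polymerase alpha, read 7.82 and 7.52 (-0.31), and Pola1, the catalytic subunit, 7.99 and 7.83 (-0.17). Prim1 and Prim2, the primase subunits, read 9.27 and 9.34, and 8.13 and 8.17, but their second probe sets differed by -0.29 and -0.18, so neither has a settled direction. Pola2 lies on chromosome 19 with 8 RefSeq genes between it and Malat1, and its other probe sets, at 3.34 to 3.91, were below the floor. Fen1, described below, also lies on chromosome 19. Pola1 lies on the X chromosome, and the arrays differed in sex-linked transcripts. The part of sex in its difference was not tested. Pold1, the catalytic subunit of polymerase delta, read 8.50 and 8.28, and Pole, that of polymerase epsilon, 7.86 and 7.67. Their accessory subunits Pold2 and Pole2 differed by -0.04 and -0.07.

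Genes for the sliding clamp, its loader and the joining of fragments lay closest to the whole array, with a median of -0.05 that was above 0 under each of the 3 other scalings. Pcna, the clamp itself, read 12.46 and 12.52. The clamp loader subunits were all lower by a little, at -0.05 for Rfc2, -0.01 for Rfc3, -0.15 for Rfc4 and -0.24 for Rfc5. All 8 of their measured probe sets were lower as deposited, beside 61.7% of all measured probe sets. Under each of the 3 other scalings 5 of 8 were lower. Rpa1 and Rpa2, which coat single-stranded DNA, differed by -0.02 and -0.05. Lig1, the ligase that seals the lagging strand, read 8.96 and 8.79 (-0.17). Fen1, the nuclease that trims the flaps before ligation, read 10.20 and 10.45 at its brighter probe set (0.24) and 9.17 and 8.85 at the other (-0.31). The Fen1 probe sets thus point in opposite directions by more than the usual spread between probe sets of a gene, and no direction can be given.

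Nucleotide synthesis genes supply the deoxynucleotides of S phase, and the 3 measured had a median of -0.15 as deposited and of -0.09, -0.07 and -0.07 under median centring, quantile and loess scaling. Rrm2, the subunit of ribonucleotide reductase that is made in S phase, read 11.80 and 11.87, while its other probe sets differed by -0.08 and -0.02. Rrm1, the large subunit, read 10.55 and 10.39 (-0.16), and Tk1, the thymidine kinase of cycling cells, 9.44 and 9.29 (-0.15). Tyms, thymidylate synthase, was not measured on either array, the brightest of its 4 probe sets reading 4.79 and 4.70. Another probe set is annotated to Tyms together with a second gene and was left out, so the level of Tyms is open to that choice.

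Chromatin genes of S phase were lower for all 3 that were measured, with a median of -0.08 that was above 0 after quantile normalization and after loess. Uhrf1, which carries DNA methylation through replication, read 9.58 and 9.34 (-0.24). Its second probe set read 7.14 and 6.59, and that difference of -0.56 was the largest among the 92 measured probe sets of the members. Both Uhrf1 probe sets stayed on the lower side, and the gene kept its sign under all 11 alternatives. Slbp, which binds histone messenger RNA, read 10.75 and 10.73, and Chaf1b, a chromatin assembly subunit, 7.79 and 7.71.

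Cyclins and kinases of G1/S went both ways, with 3 of 6 lower and a median of -0.03 that was above 0 under median centring and quantile scaling. Ccnd1, the cyclin D1 gene that growth factors switch on, read 10.99 and 11.16 (0.17), and its other probe sets read 10.95 and 11.04, and 9.55 and 9.58. All 3 were higher on the knock-out array, as deposited and under each of the 3 other scalings. Ccnd2, the cyclin D2 gene, read 13.37 and 13.30 (-0.07), and all 7 of its probe sets were lower as deposited, with differences from -0.17 to -0.05, and 6 or 7 of 7 under the other scalings. The D cyclins therefore lay on opposite sides of 0 on these arrays, by differences within the pooled SD between probe sets of a gene. Cdk2, the partner of cyclin E, read 8.66 and 8.40 (-0.27), and Ccne2, a cyclin E gene, 8.87 and 8.68 (-0.19). Ccne1, the other cyclin E gene, read 9.80 and 9.82, and Cdk4, the partner of the D cyclins, 11.06 and 11.11, with further Cdk4 probe sets at -0.08 and -0.27.

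Among the E2F factors E2f1 was higher on the knock-out array and E2f3 was not. E2f1, an activator that is itself an E2F target, read 7.29 and 7.56, and its difference of 0.27 was the largest upward value of any member. Of all measured genes 91.9% had a lower difference. Its second measured probe set differed by 0.04 and the remaining one, below both floors, 5.02 and 5.28. E2f3 read 8.99 and 8.88 (-0.12), and its other probe set 7.03 and 7.06. E2f2 was above the floor on the wildtype array alone, at 5.56 against 5.39, which makes it at least 1.09-fold lower.

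**Figure D2:**
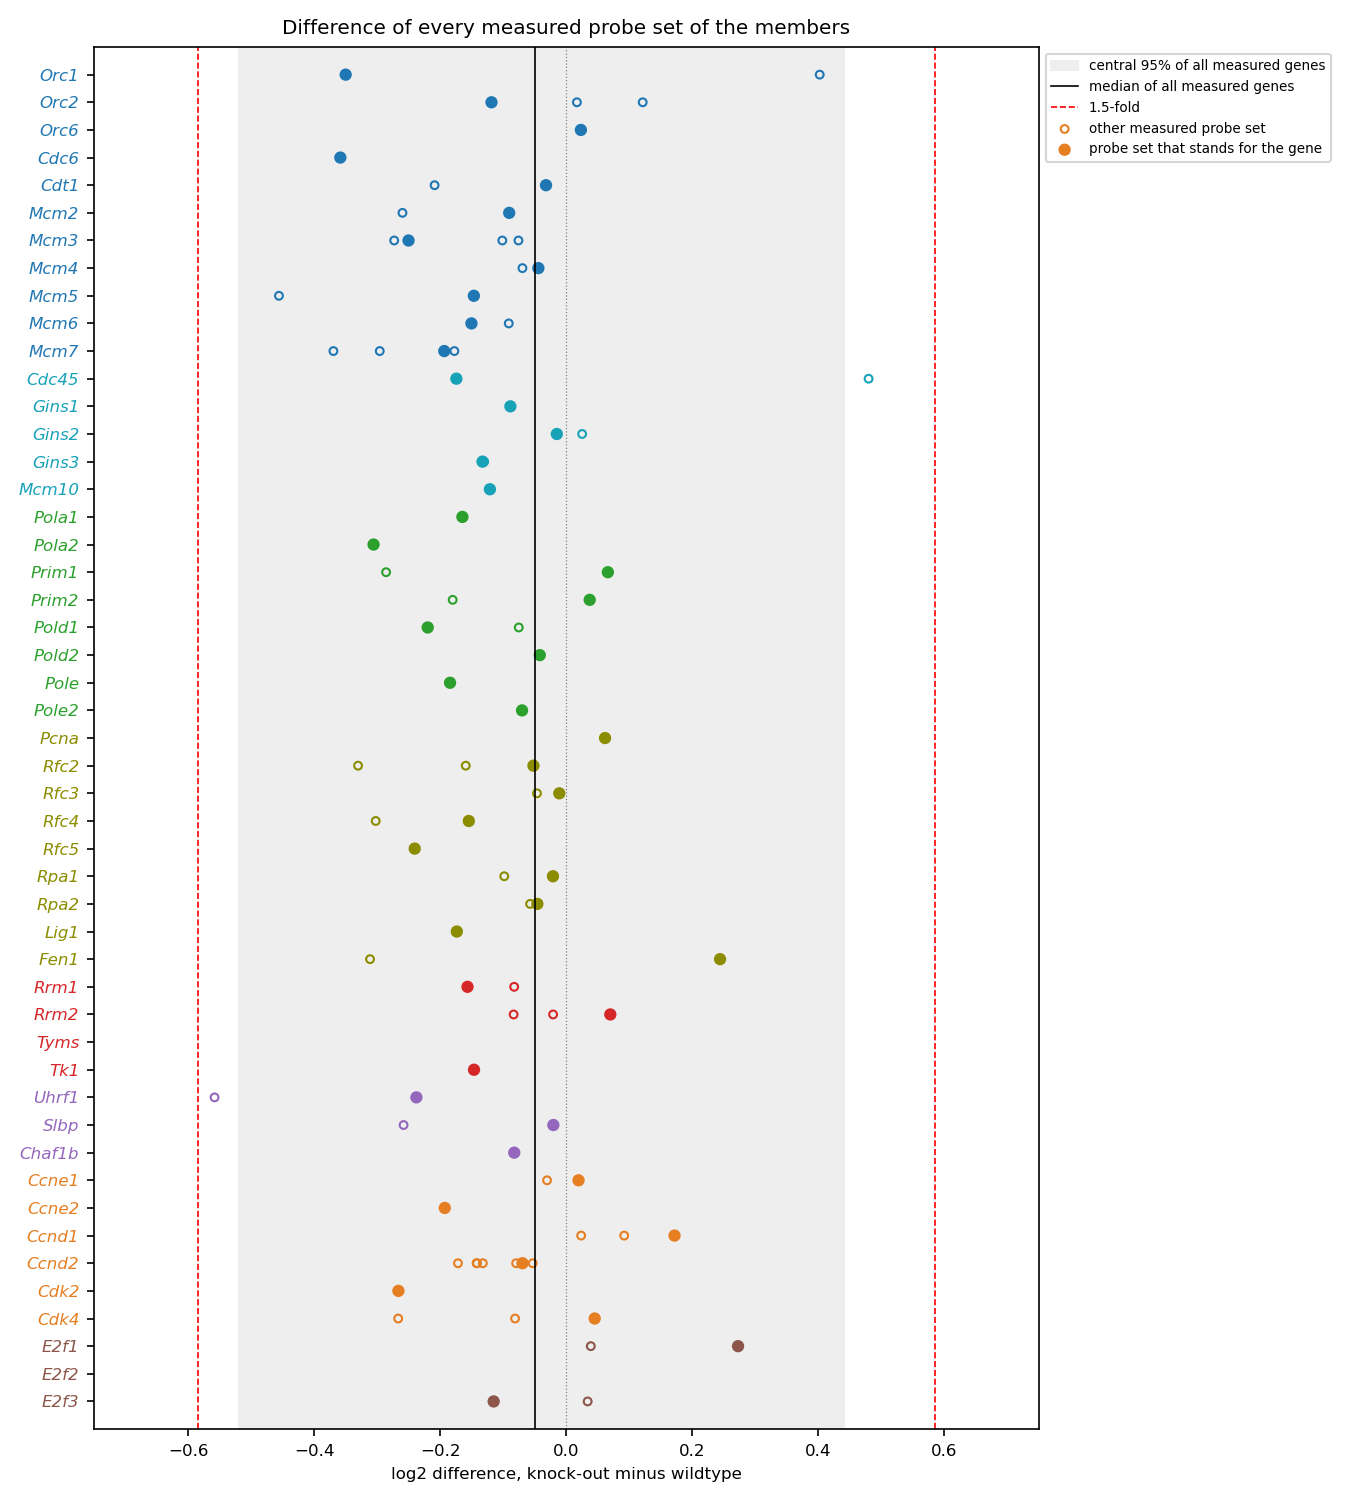
Log2 difference, knock-out minus wildtype (horizontal axis), of all 92 measured probe sets of the members, filled circles for the probe set that stands for the gene and open circles for the others, coloured by role. The grey band spans the central 95% of all measured genes (-0.52 to 0.44), the black line is their median of -0.05, and no circle passes the dashed lines at 1.5-fold.

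Probe sets of the same gene were compared as a check within these arrays. Of the 31 members with several measured probe sets, 18 had all of them lower on the knock-out array (58.1%), 2 had all of them higher and 11 were mixed. Over all 4883 such genes 41.8% had every probe set lower and 14.5% every probe set higher. The 2 members with every probe set higher were Ccnd1 and E2f1. Orc1, Cdc45, Fen1, Prim1 and Prim2 were among the mixed members.

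The members were then set out by the E2F letters in their promoter windows, a split made with the values known and described with no test. All 16 measured members with a match were lower on the knock-out array, with a median of -0.17, from Cdc6 at -0.36 to Rfc3 at -0.01. Of the 22 measured members with a window and no match 14 were lower and 8 higher, with a median of -0.04. Members with a match had medians of -0.11, -0.09 and -0.10 under median centring, quantile and loess scaling, with 14, 13 and 13 of 16 below 0. Members without a match stood at 0.02, 0.03 and 0.02, with 10, 9 and 9 of 22 below 0. Among all measured genes the 439 with a match had a median of -0.08, and 69.0% of them were lower. The 8733 without a match had a median of -0.05, with 59.5% lower. The gap narrowed when probe sets named _x_at and _s_at were left out, to medians of -0.16 with a match and -0.08 without (18 of 22 lower). The mean over measured probe sets likewise gave -0.16 (15 of 16 lower) and -0.07 (17 of 22). In a second list of replication genes, 14 of 15 with a match and 17 of 23 without were lower, with medians of -0.20 and -0.18. A floor raised to the 75th percentile gave medians of -0.18 and -0.08 for that list. Median centring gave -0.14 and -0.12, quantile scaling -0.08 and -0.07, and loess -0.09 and -0.09, so the gap was small there. Under those scalings 13, 12 and 13 of the 15 with a match were lower, and 16, 15 and 15 of the 23 without. A match to these letters is not evidence of binding.

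**Figure D3:**
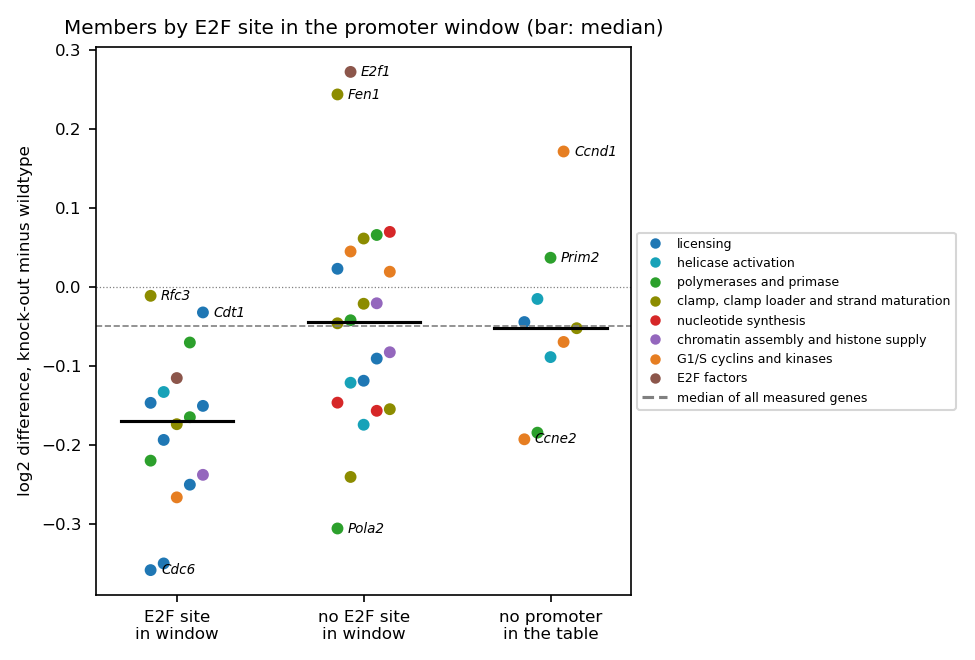
Log2 difference, knock-out minus wildtype (vertical axis), of the 47 measured members by whether a match to the E2F letters (labelled E2F site) was found in the promoter window, with points coloured by role and bars at the medians of -0.17, -0.04 and -0.05. All 16 points in the group with a match lie below 0, beside 69.0% of all measured genes with a match. The dashed line is the median of all measured genes.

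Other genes of the same programme, from a list of 51 that leaves out the 50 members, were measured for 47 and lay somewhat lower than the members. Of these 38 were lower and 9 higher on the knock-out array, with a median of -0.19, beside 59.8% of all measured genes lower. Under the other scalings 33 to 35 of the 47 stayed lower, beside 44.8% to 47.6% of all measured genes. Only Mcm8, a helicase of homologous recombination, reached 1.5-fold, at 6.53 and 5.85 (-0.68). Brca2, which loads the recombinase onto DNA, read 7.65 and 7.18 (-0.47). Dut, the enzyme that keeps uracil out of DNA, read 10.63 and 10.26, and Rad51ap1, a recombination cofactor, 8.14 and 7.77. Brip1, a helicase that works with Brca1, was above the floor on the wildtype array alone, at 5.71 and 4.87, at least 1.21-fold lower. The highest values were 0.09 for Rnaseh2a, 0.08 for Rrm2b, 0.06 for Orc4 and 0.06 for Asf1b, though Rrm2b and Orc4 also had probe sets as low as -0.16 and -0.13.

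A further 10 E2F, DP and pocket protein genes and 7 CDK inhibitors were measured, with medians of -0.10 and -0.15. The pocket proteins, which hold E2F inactive, were lower, with Rb1 at 8.21 and 7.89 (-0.31), Rbl1 at 8.20 and 7.87 (-0.33) and Rbl2 at 6.90 and 6.34 (-0.56), each from a single measured probe set. The partner genes Tfdp1 and Tfdp2 differed by -0.11 and -0.19. The further E2F genes differed by 0.26 for E2f4, -0.09 for E2f7 and -0.08 for E2f8. E2f5 and E2f6 stood at -0.01 and -0.04, but their probe sets ranged from -0.03 to 0.56 and from -0.04 to 0.12. Among CDK inhibitors, Cdkn2a, whose products block cyclin D kinases and stabilise p53, read 8.45 and 7.03 (-1.42), the only one of 7 past 1.5-fold. Cdkn1b read 9.60 and 9.20 (-0.40), and Cdkn1c 8.66 and 8.89. Cdkn1a, the p53-induced inhibitor, read 12.32 and 12.53 (0.21), but its other probe set differed by -0.28, so it has no settled direction. Mitosis and spindle genes, which follow replication in the cycle, were lower for 25 of 27 measured genes (median -0.16), beside 59.8% of all measured genes. Under median centring, quantile and loess scaling 20, 19 and 20 of the 27 were lower. The shares of all measured genes were then 47.6%, 44.8% and 47.4%. Plk1, Mki67, Kif11 and Bub1 differed by -0.49, -0.44, -0.41 and -0.39, and none passed 1.5-fold. These lists share their arrays with the members and the difference between lists was not tested.

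**Figure D4:**
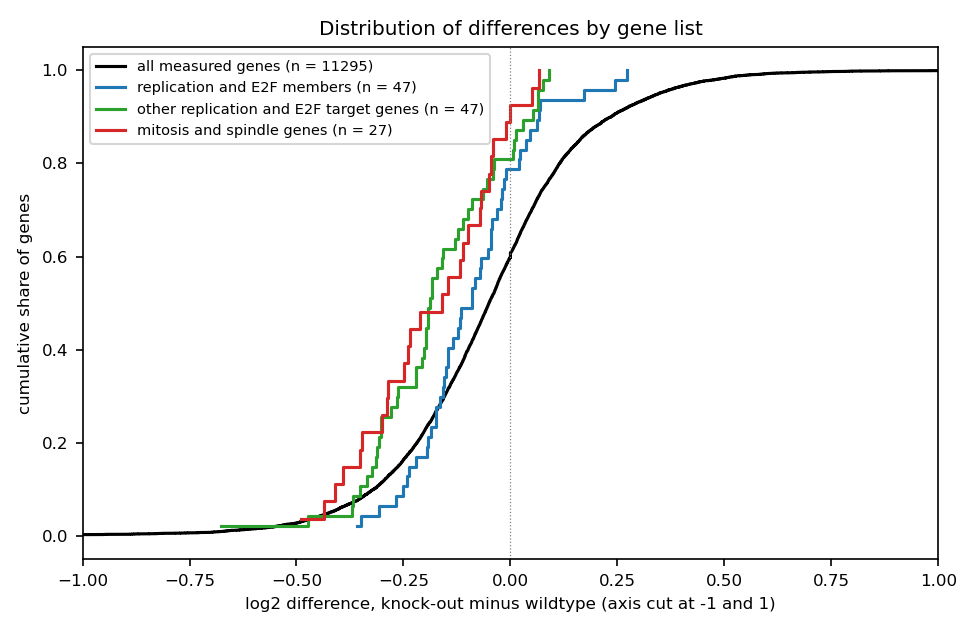
Cumulative share of genes (vertical axis) by log2 difference, knock-out minus wildtype (horizontal axis, cut at -1 and 1), for all 11295 measured genes, the 47 measured members, 47 other replication and E2F target genes and 27 mitosis genes. The members' curve is steeper than that of all genes and crosses it, while the other 2 lists lie to its left over most of their range.

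**Figure D5:**
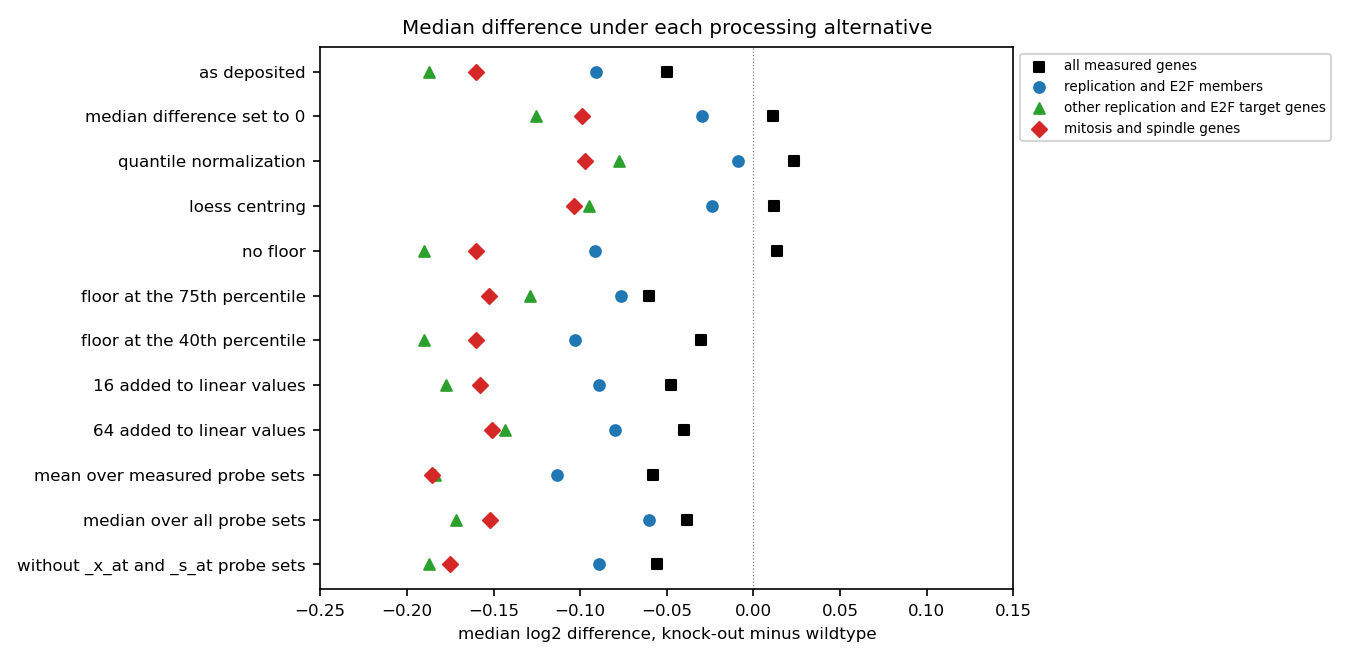
Median log2 difference, knock-out minus wildtype (horizontal axis), of the members and of 2 other lists beside all measured genes, as deposited and under each of 11 processing alternatives (vertical axis). The members' median stays between -0.11 and -0.01, and the 3 other scalings bring it nearest to 0.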

How the data were processed

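The authors deposited 1 value per probe set for each of 2 Affymetrix Mouse430_2 arrays, 1 per genotype, taken here as log2 signals because they run from 2.09 to 14.71. Their summarization and normalization were not given in the sources used here, and a method that equalises arrays would shrink a shift shared by most genes. Per the labels' protocols, labelling with a 3′ kit started from 100 ng of RNA. The table holds 45037 probe sets besides 64 controls. In the platform annotation 34958 probe sets have 1 gene symbol, 932 have several and 9211 have none. All 49 members found carry a gene identifier to which RefSeq gives the same symbol. A gene was represented by its probe set with the highest mean, and the floor was the median of non-control probe sets on each array. The number of arrays limits the precision, and no test across genes was made.

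Alternatives were 3 other scalings (the median difference set to 0, quantile, and loess with a span of 0.3), other floors (none, the 75th and the 40th percentile), 16 or 64 added on the linear scale, and other ways to represent a gene (the mean of measured probe sets, the median of all, or without those named _x_at and _s_at). Members, lists and sequence letters were chosen with earlier results of these data known. Any member could be named, and from other lists the genes past 1.5-fold and up to 4 in each direction. The remaining E2F family genes, Orc3 and Pole3 were named after their values were seen, and the split by promoter letters was added then too. The scripts, in Python 3.11.15 with pandas 2.3.3 and statsmodels 0.14.6, were tested on simulated data. Promoter sequences are RefSeq's, build GRCm38.p6. Members with no promoter entry were Gins1, Gins2, Mcm4, Pole, Prim2, Rfc2, Ccne2, Ccnd1 and Ccnd2.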

Additional observations from a re-analysis of the deposited data

How the results depend on the processing

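No paired analysis was possible because only 1 array of either genotype was analysed, and for the same reason no array could be left out. None of the 47 measured members reached 1.5-fold under any of the 11 alternatives, and at 0.32 on the log2 scale 2 were lower. The number of members higher on the knock-out array went from 10 to 19 with the median difference set to 0, 22 after quantile normalization and 21 after loess centring. Under these scalings, in that order, the median of clamp and loader genes turned to 0.0153, 0.0316 and 0.0320. That of members with a window and no match to the E2F letters turned to 0.0172, 0.0279 and 0.0210. The median of G1/S cyclins and kinases turned to 0.0361 with the median difference set to 0 and to 0.0047 after quantile normalization, that of chromatin genes to 0.0118 after quantile normalization and 0.0165 after loess, and that of helicase activation genes to 0.0080 after quantile normalization. The E2F factor median, over 2 genes, turned to -0.12 without a floor and with floors at the 75th and 40th percentile, since E2f2 then enters or E2f1 leaves. In the other lists, higher mitosis genes went from 2 to 7, 8 and 7 under the scalings, 1 with the 75th percentile floor and 5 when the median of all probe sets was used, where 1 was past 1.5-fold lower. Higher genes of the further E2F and pocket list went from 1 to 3, 5 and 5 (5 and 5 lower after quantile and loess), 0 with the 75th percentile floor, and 3 with the mean over measured or the median over all probe sets. Among other replication genes 14 were higher after quantile normalization and 25 lower with the 75th percentile floor. Their count past 1.5-fold lower was 2 without a floor, with the 40th percentile floor and when the median of all probe sets was used, and 0 with the 75th percentile floor or with 16 or 64 added. With the 75th percentile floor 0 CDK inhibitors passed it, since Cdkn2a falls below that floor. The cause of the other moves was not tested. Single members that moved by more than the pooled SD between probe sets were Orc1, Cdc45, Fen1, Mcm5, Mcm10, Pola1 and Pola2, each under an alternative that changes the probe sets used.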
